A study of Mus musculus with 45 samples.

Results

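The comparison described here set 2 ways of giving BMP4 to neuromesodermal progenitors against each other, 2 days after both treatments had ended. The 6 libraries, out of 45 in the series, were chosen by their labels alone: the 3 day 7 libraries of the combined treatment (M7) and the 3 day 7 libraries of the sequential treatment (B7). M7 cultures received 100 nM retinoic acid (RA) with 10 ng/ml BMP4 for 48 h, from day 3 to day 5. B7 cultures received 100 nM RA alone for 24 h and then 100 nM RA with 10 ng/ml BMP4 for 24 h, over the same 2 days. M7 cells therefore met BMP4 earlier and for 48 h, against 24 h in B7 cells, and start and duration cannot be told apart. Another day 7 group had RA alone for 48 h (R7, 3 libraries) and is used for levels without a test. The labels give the RA interval of that group in 2 ways, which differ by 1 day. Cells of all 3 groups came from mouse embryonic stem cells (mESCs) grown as adherent cultures and directed to neuromesodermal progenitors with bFGF and CHIR, a WNT pathway activator, for the first 2 days. The series was made from 3 independent differentiations. Whether equal replicate numbers stand for 1 differentiation is not given in the labels, nor is the mESC line.

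Neuromesodermal progenitors are bipotent cells of the embryo's tail end that supply both spinal cord and paraxial mesoderm. RA from the somites directs them to a neural, spinal fate. BMPs from the surface ectoderm and the roof plate give neural cells dorsal identity, marked by transcription factors such as Pax3, Pax7, Olig3 and Atoh1. Of the sensory interneurons named dI1 to dI6, they so specify dI1 to dI3. In the early embryo BMP signalling also patterns mesoderm towards lateral and cardiac fates and ectoderm towards epidermis. Its signal passes through type I and type II receptors to SMAD1, SMAD5 and SMAD9, and it induces its own inhibitors, among them Smad6 and Bambi.

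The table held 11220 genes with an expression level per library that the authors had normalized and that carries no unit. Levels here are comparable between libraries for 1 gene, and levels of different genes are not compared. Level sums over the listed genes were 14573220 to 14963227 in M7 and 13342263 to 13913772 in B7. Across genes, log2 levels of M7 libraries correlated among themselves at r = 0.968 to 0.988 and those of B7 libraries at 0.982 to 0.989. M7 replicate 3 stood closest to B7 (r = 0.946 to 0.951), against 0.910 to 0.937 for M7 replicates 1 and 2. M7 replicate 3 also had the highest summed level of pan-neuronal genes in its group, as given below. The labels name mESCs as the cell type. The pluripotency factor Pou5f1 had levels of 1965, 331 and 529 in M7, against 1728, 1554 and 441 in B7, and 3064, 2678 and 22336 in the untreated mESCs of day 0. Nanog had levels of 541, 155 and 314 in M7, against 1196, 893 and 328 in B7, and 1939, 1505 and 17475 on day 0. Day 0 replicate 3 stood apart from the other day 0 libraries in both genes; it enters the test only through the shared estimate of spread, and the fit without it, added after seeing the data, called 4854 genes in place of the 4673 below. Both genes were thus detected on day 7, their M7 and B7 ranges overlapped, and neither passed the test.

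M7 cultures differed from B7 cultures in a large share of the listed genes. Of 11220 genes, 4673 passed a limma test on log2(level + 1) at an adjusted p under 0.05, which is 41.6%. Of these, 2437 genes (21.7%) were higher and 2236 (19.9%) lower in M7. A change of 2-fold or more was reached by 971 higher genes (8.65%) and 1102 lower genes (9.82%). The groups of 3 libraries did not overlap at all in 5771 genes, 51.4% of those tested, with M7 above B7 in 27.5% and below in 24%. The median log2 change of all genes was 0.03. The table was limited by the authors to genes that passed their rate of 0.1 in 1 or more of 12 comparisons, and 432 genes (3.85%) stand in it through B7 against M7 alone, so these shares hold for the listed genes only.

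**Figure D1:**
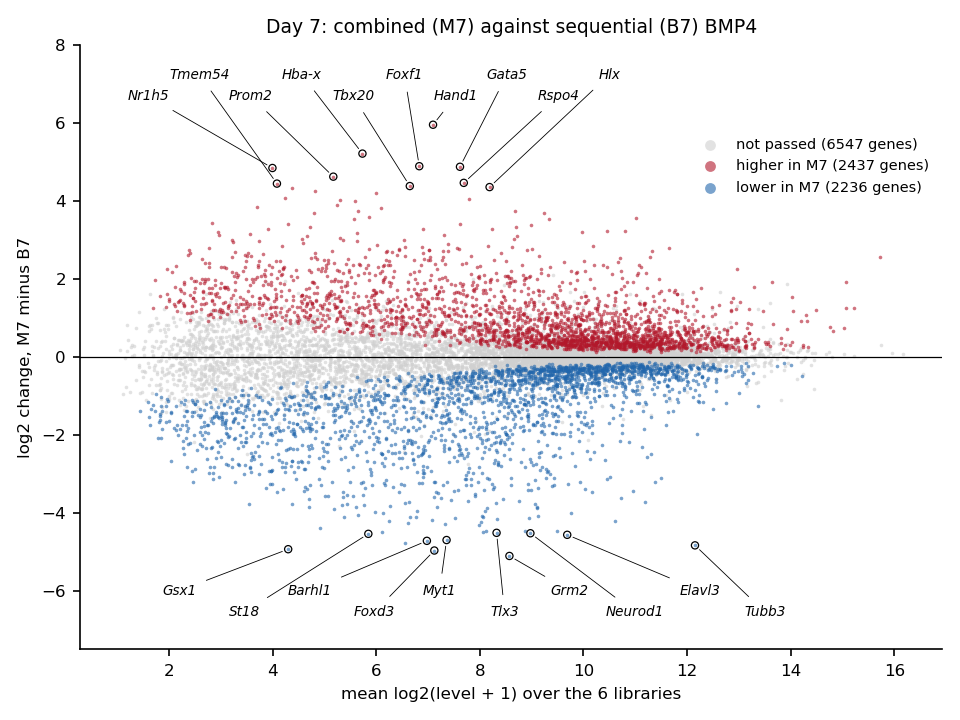
Each point is 1 of 11220 genes, with its mean log2(level + 1) over the 3 M7 and 3 B7 libraries on the horizontal axis and its log2 change, M7 minus B7, on the vertical axis. Red points (2437) passed higher in M7, blue points (2236) passed lower in M7, grey points did not pass, and the 20 circled genes led the changes, from 5.97 for Hand1 to -5.11 for Grm2.

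The genes with the largest rise in M7 were led by transcription factors of lateral and cardiac mesoderm. Leading genes in both directions were taken only from called genes whose groups did not overlap. Their separation is thus a condition of the choice, and 51.4% of all genes met it. Hand1, a basic helix-loop-helix factor of lateral mesoderm and heart (chr11:57828705-57832818, all gene coordinates from GENCODE M21 on mm10), had levels of 1168, 1148 and 942 in M7, against 16.8, 13.9 and 18.5 in B7. Its 3 M7 values lay within a narrow band far above B7, a 62.5-fold difference (log2 change 5.97 ± 0.91 (SE), adjusted p = 4.6e-06). In R7 its levels were 6.17, 10.0 and 12.4, below both other groups.

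Foxf1, a forkhead factor of splanchnic mesoderm (chr8:121084386-121088144), had levels of 342, 1038 and 674 in M7, against 15.3, 31.9 and 15.8 in B7. All M7 libraries were far above the highest B7 library, and the fitted log2 change was 4.90 ± 0.52 (SE, adjusted p = 1.1e-08). Gata5, a GATA factor of endoderm, heart and epicardium (chr2:180325133-180334699), had 575, 1469.6 and 1434 in M7, against 38.0, 27.3 and 41.6 in B7, with M7 replicate 1 lowest of its group and the groups well apart (log2 change 4.89, adjusted p = 4.4e-05). Tbx20, a T-box factor of the heart (chr9:24718138-24774303), had 599.9, 622 and 258 in M7, against 21.5, 22.2 and 19.1 in B7, with M7 replicate 3 lowest of its group and still above all B7 libraries (log2 change 4.39, adjusted p = 1.7e-06). Hlx, a homeobox factor of visceral mesenchyme (chr1:184727140-184732619), was even within M7 at 1316, 1369 and 1283, against 64.9, 44.5 and 87.5 in B7 (log2 change 4.36, adjusted p = 1.4e-05).

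The other genes of this group were of mixed kinds. Rspo4, a secreted enhancer of WNT signalling (chr2:151842927-151874668), had 434, 1384 and 1529 in M7, against 35.8, 47.5 and 46.2 in B7 (log2 change 4.47, adjusted p = 4.7e-10). Prom2, a membrane glycoprotein of epithelial protrusions (chr2:127526473-127541467), had 230.0, 155 and 159.6 in M7, against 7.30, 3.32 and 9.58 in B7 (log2 change 4.63, adjusted p = 7.0e-12). Nr1h5, a nuclear receptor gene (chr3:102939658-102964133), had 62.7, 129 and 75.8 in M7, against 1.03, 1.70 and 3.77 in B7 (log2 change 4.85, adjusted p = 3.2e-12). The groups were apart in each of these 3 genes, as the choice of leading genes required. Tmem54, a transmembrane protein gene (chr4:129105548-129111626), had 116, 102 and 40.3 in M7, against 3.62, 4.06 and 1.03 in B7, with M7 replicate 3 lowest of its group (log2 change 4.45, adjusted p = 4.7e-08).

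Hba-x, the embryonic alpha-like globin (chr11:32276400-32278116), was the most uneven of the leading genes. Its levels were 418, 1559 and 51.7 in M7, against 12.8, 3.79 and 8.99 in B7, so that M7 replicate 2 was far above M7 replicate 3, and all 3 were above B7 (log2 change 5.22, adjusted p = 3.8e-05). The M7 level is uncertain given this spread, and how any reads shared with other globin genes were counted is not given.

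The genes with the largest fall in M7 were neuronal or dorsal neural. Grm2, a metabotropic glutamate receptor (chr9:106643095-106656082), had levels of 34.4, 55.8 and 134 in M7, against 2425, 2016 and 2274 in B7, a 34.5-fold lower level in M7 (log2 change -5.11 ± 0.83 (SE), adjusted p = 1.2e-05). Tubb3, the neuronal beta-tubulin (chr8:123411424-123422015), had 639, 565 and 1701 in M7, against 24656, 20828 and 28015 in B7 (log2 change -4.84, adjusted p = 3.6e-05). In both genes M7 replicate 3 was the highest of its group and remained far below the lowest B7 library.

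Foxd3, a forkhead factor of dI2 interneurons and neural crest (chr4:99656299-99658622), had 26.3, 13.8 and 37.1 in M7, against 1043, 664 and 681 in B7 (log2 change -4.97, adjusted p = 2.1e-05). Tlx3, a homeobox selector of dI3 and dI5 neurons (chr11:33200752-33203589), had 38.0, 47.3 and 158 in M7, against 1459, 1348 and 1819.5 in B7 (log2 change -4.51, adjusted p = 1.6e-05). Gsx1, a homeobox factor of dI3 to dI5 progenitors (chr5:147188696-147190947), had 1.75, 1.71 and 5.08 in M7, against 99.6, 125 and 101 in B7 (log2 change -4.93, adjusted p = 4.3e-06). The absence of overlap in these 3 genes was again required by the choice.

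Barhl1, a homeobox factor of dI1 neurons (chr2:28907679-28916668), had 8.20, 17.5 and 86.2 in M7, against 384, 445 and 1578 in B7, so that replicate 3 was the highest in both groups (log2 change -4.72, adjusted p = 0.0011). The same order held in Myt1 and St18, 2 related zinc finger factors of differentiating neurons. Myt1 (chr2:181763332-181827797) had 9.83, 25.6 and 114 in M7, against 629, 608 and 1523 in B7 (log2 change -4.70, adjusted p = 0.0072), and St18 (chr1:6487231-6860940) had 3.45, 7.20 and 45.7 in M7, against 215, 203 and 486 in B7 (log2 change -4.54, adjusted p = 0.0017). Elavl3, a neuronal RNA-binding protein (chr9:22015005-22052023), had 87.5, 137 and 397 in M7, against 3662, 3424 and 5134 in B7 (log2 change -4.57, adjusted p = 4.7e-05). Neurod1, a basic helix-loop-helix factor of neuronal differentiation (chr2:79452521-79456751), had 59.3, 91.6 and 206 in M7, against 2988, 2291 and 2057 in B7 (log2 change -4.53, adjusted p = 5.7e-07). For these 5 genes too, separate ranges follow from how the leading genes were chosen.

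Promoter windows were read for the 20 leading genes to look for 2 short motifs tied to the factors named above, GGCGCC, a GC-rich element bound by BMP SMADs, and CAGCTG, an E-box bound by proneural helix-loop-helix factors. Both read the same on either strand and they do not overlap. RefSeq promoter windows (GRCm38.p6, 250 bases before to 50 after the gene's start) were matched for 17 of the 20 genes. GGCGCC was in 2 of 8 matched higher genes and in 2 of 9 matched lower genes, and in 11.9% of all 32851 promoters. CAGCTG was in 1 of 8 higher genes and in 2 of 9 lower genes, and in 16.3% of all promoters. With so few genes the counts do not separate the directions. The windows below, chosen after the matches were seen, show 1 higher gene with GGCGCC and 2 lower genes with CAGCTG, each 5′ to 3′ on its gene's strand with the motif in capitals. They are Tbx20 (chr9:24774254-24774553, minus strand), Elavl3 (chr9:22051974-22052273, minus strand) and Barhl1 (chr2:28916619-28916918, minus strand).
Tbx20: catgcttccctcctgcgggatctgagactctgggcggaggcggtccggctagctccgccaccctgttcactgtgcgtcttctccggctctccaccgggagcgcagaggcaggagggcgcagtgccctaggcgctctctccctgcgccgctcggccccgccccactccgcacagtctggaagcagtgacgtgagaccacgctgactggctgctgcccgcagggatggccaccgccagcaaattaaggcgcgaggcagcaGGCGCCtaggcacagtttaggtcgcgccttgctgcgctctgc
Elavl3: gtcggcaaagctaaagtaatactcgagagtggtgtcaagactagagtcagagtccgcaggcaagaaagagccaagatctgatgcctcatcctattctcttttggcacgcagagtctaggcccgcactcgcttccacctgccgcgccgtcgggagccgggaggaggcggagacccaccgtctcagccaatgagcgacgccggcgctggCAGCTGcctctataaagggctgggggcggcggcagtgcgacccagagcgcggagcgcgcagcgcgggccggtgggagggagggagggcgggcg
Barhl1: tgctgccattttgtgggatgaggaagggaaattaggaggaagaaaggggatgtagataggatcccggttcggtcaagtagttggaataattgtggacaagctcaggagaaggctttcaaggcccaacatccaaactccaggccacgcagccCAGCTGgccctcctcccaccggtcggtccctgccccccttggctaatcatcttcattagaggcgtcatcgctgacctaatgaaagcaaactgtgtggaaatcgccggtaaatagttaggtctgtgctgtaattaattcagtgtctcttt

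Genes of neural progenitors were mostly lower in M7. Because each library holds a whole culture, fewer cells of a type and less RNA per cell cannot be told apart in any group below. Each list count below stands beside 21.7% higher and 19.9% lower, 41.6% in all, among the genes tested. The lists were chosen with earlier results of these data known, so these counts describe the lists and are not an independent test. Of 20 pan-neural progenitor genes on the list, 18 were in the table; 2 passed higher and 11 lower, with a median log2 change of -2.26. Sox2, the SOXB1 factor that maintains neural progenitors, had levels of 923, 752 and 1352 in M7, against 7973, 8419.7 and 8992 in B7, and of 7550.0, 6942 and 8431 in R7. B7 was thus near R7, and M7 lay 8.62-fold below B7 (log2 change -3.11 ± 0.30 (SE), adjusted p = 2.3e-09). Rfx4, a transcription factor of the neural tube, had 61.3, 103 and 249.8 in M7, against 1826, 1637 and 2957 in B7 (log2 change -4.14, adjusted p = 4.7e-05). Ncan, a brain proteoglycan, had 115, 207 and 378 in M7, against 1192, 1489 and 2177 in B7 (log2 change -2.91, adjusted p = 2.8e-06). For Rfx4 and Ncan the highest M7 library was again replicate 3, and it stayed under the lowest B7 library.

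Pax6, a paired-box factor of neural progenitors, had 70.8, 147 and 189 in M7, against 444, 547 and 686 in B7, and 1682, 1725 and 1458 in R7. Its order was M7 below B7 below R7, and the M7 to B7 difference passed (log2 change -2.12, adjusted p = 0.0046). Lhx2, a LIM homeobox factor that is on this list and also marks dI1 neurons, went the other way with 292, 753 and 382 in M7, against 79.5, 120.0 and 184 in B7 (log2 change 1.85, adjusted p = 0.0061; adjusted p 7.2e-07 to 0.054 over the alternatives, the highest without M7 replicate 2). Irx3 (log2 change 1.40, adjusted p = 0.056), Vim (log2 change -0.83, adjusted p = 0.08) and Msi1 (log2 change -0.64, adjusted p = 0.17) did not pass.

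Dorsal progenitor genes fell more evenly. All 20 were in the table, 1 passed higher and 17 lower, and the median log2 change was -3.20, against 0.03 over all genes. Zic2 and Zic5, zinc finger factors of the dorsal neural tube, were both lower in every M7 library. Zic5 had 40.8, 51.0 and 101 in M7, against 680.5, 722 and 962 in B7 (log2 change -3.69, adjusted p = 4.7e-08). Zic2 had 307, 432 and 797 in M7, against 3453, 3899 and 5392 in B7 (log2 change -3.14, adjusted p = 5.7e-08).

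Atoh1, the proneural factor of dI1 progenitors, had 16.8, 46.0 and 210.4 in M7, against 822, 952 and 2514 in B7, and 200.2, 233 and 12.6 in R7. Replicate 3 was the highest library in both M7 and B7, the groups did not overlap, and M7 was 22.3-fold lower (log2 change -4.48 ± 1.10 (SE), adjusted p = 0.0016). Olig3, which marks dI1 to dI3 progenitors, had 45.8, 109 and 339 in M7, against 999, 1255 and 3043 in B7 (log2 change -3.70, adjusted p = 0.0047). Pax7, a dorsal paired-box factor, had 18.0, 50.1 and 132 in M7, against 186, 312 and 373 in B7, and 1341, 1238 and 1072 in R7, so that both BMP4 groups were below RA alone and M7 was below B7 (log2 change -2.47, adjusted p = 0.0011). Pax3, its relative, had 28.8, 275 and 413 in M7, against 337, 562 and 906 in B7, with overlapping ranges, and did not pass (log2 change -1.89, adjusted p = 0.087). Dbx1, which marks progenitors at the dorsoventral boundary, did not pass either (log2 change -1.42, adjusted p = 0.24).

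**Figure D2:**
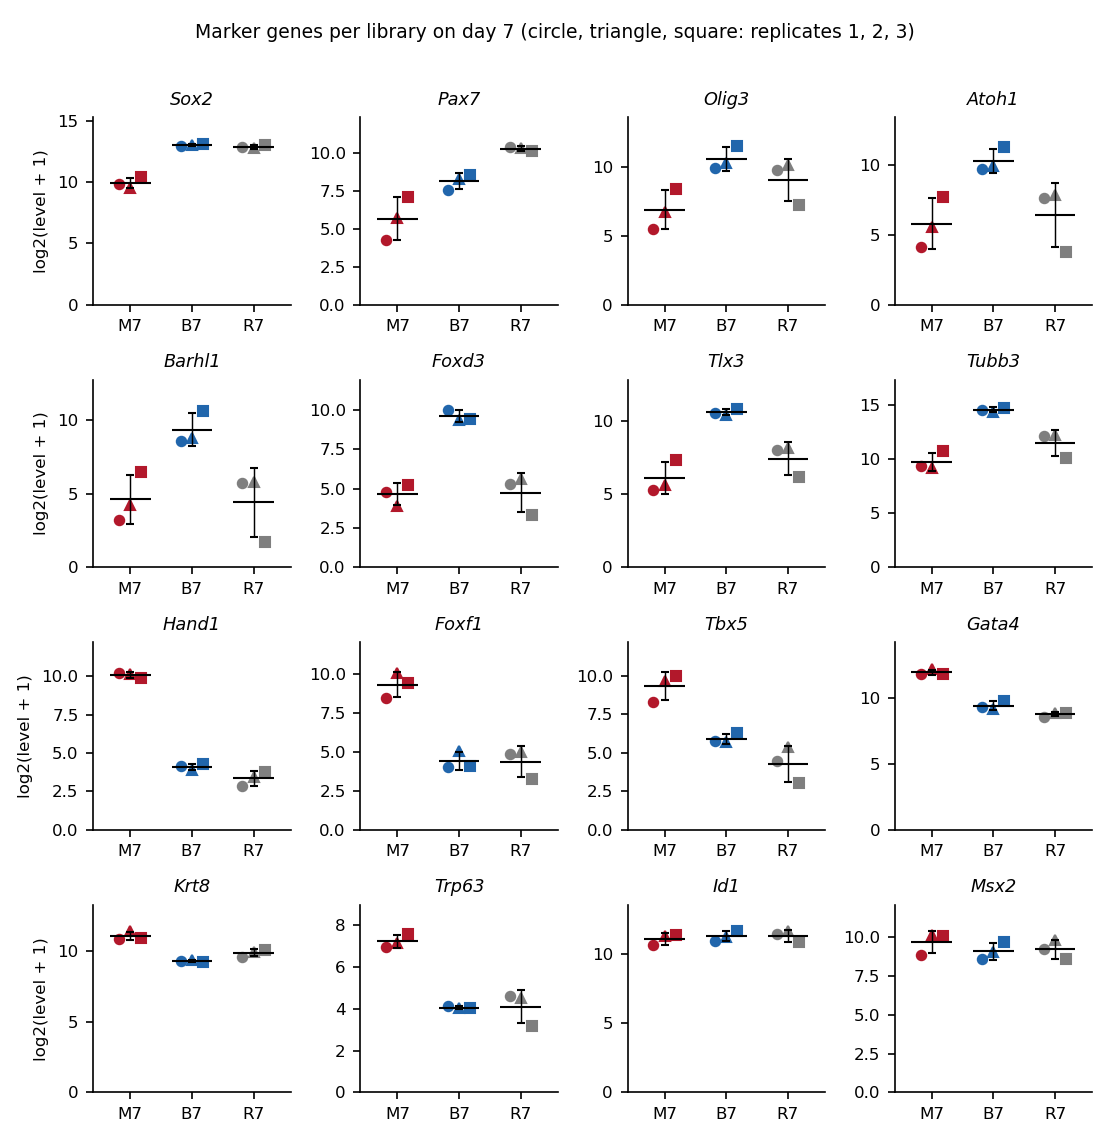
Level of 16 marker genes on day 7 as log2(level + 1), for the combined treatment (M7, red), the sequential treatment (B7, blue) and RA alone (R7, grey), with circles, triangles and squares for replicates 1, 2 and 3, a line at the mean and whiskers of 1 SD (n = 3). Neural genes such as Sox2 and Tubb3 are lower in all M7 libraries than in any B7 library, Hand1, Foxf1, Tbx5, Gata4, Krt8 and Trp63 are higher, and the ranges of Id1 and Msx2 overlap.

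The roof plate, the dorsal midline source of BMP and WNT ligands, was represented by 11 of 12 list genes. 0 passed higher and 5 passed lower, with a median of -0.79. Wnt3a had 60.1, 118 and 269 in M7, against 932, 1142 and 1686 in B7 (log2 change -3.28, adjusted p = 2.8e-05), and Gdf7, a BMP-family ligand specific to the roof plate, had 15.7, 52.4 and 90.6 in M7, against 256, 278 and 562 in B7 (log2 change -2.98, adjusted p = 3.5e-04). Lmx1a, the LIM homeobox factor that specifies the roof plate, had 25.7, 65.1 and 115 in M7, against 456, 505 and 1069.5 in B7 (log2 change -3.41, adjusted p = 0.0024). The groups did not overlap in these 3 genes. Msx1 and Msx2, homeobox targets of BMP that the roof plate shares with crest and mesenchyme, did not separate the groups. Msx1 had 324, 2007 and 2559 in M7, against 639, 1223 and 2379 in B7, and 8510.2, 12629 and 4373 in R7 (log2 change -0.05, adjusted p = 0.97), and Msx2 had 465, 1122 and 1103 in M7, against 388, 531 and 821 in B7 (log2 change 0.59, adjusted p = 0.69). The count of 5 became 3 without B7 replicate 3.

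Genes of dI1 to dI3 interneurons, the classes that depend on BMP, were all in the table (16 genes). Of these, 2 passed higher and 9 lower, with a median of -2.42. The 2 higher ones were Lhx2 (log2 change 1.85), given above, and Evx1 (log2 change 2.53), given below with the caudal progenitor genes. Relative to the same 3 R7 libraries, without a test, the list's median log2 difference was -0.15 for M7 and 2.00 for B7. R7 replicate 3 was the lowest R7 library in every gene of the list but Evx1, and so lowers this baseline. In R7, Barhl1 had 51.9, 55.2 and 2.23, and Tlx3 had 251, 281 and 68.8. Pou4f1, a POU factor shared by dI1 to dI3 and dI5 neurons, had 86.5, 204 and 552 in M7, against 1894, 2201 and 2268 in B7, and 752, 834 and 365 in R7 (log2 change -3.30, adjusted p = 8.2e-07). Pou4f2, its relative, had 7.82, 3.68 and 10.4 in M7, against 92.8, 69.7 and 81.8 in B7 (log2 change -3.39, adjusted p = 5.7e-04). M7 libraries were below all B7 libraries in both genes. Isl1, which marks dI3 neurons and also early heart progenitors, had 111, 233 and 387 in M7, against 489.5, 664 and 733 in B7, apart in range but not past the test (log2 change -1.52, adjusted p = 0.11). Lhx9, a dI1 factor, had 75.4, 77.1 and 145 in M7, against 150.4, 139 and 382 in B7, with an overlap, and did not pass (log2 change -1.07, adjusted p = 0.3).

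Genes of dI4 to dI6 interneurons, which form without BMP, were all in the table (20 genes), with 1 higher, 9 lower and a median of -1.12. Lhx5, a LIM homeobox factor, had 8.46, 17.1 and 81.2 in M7, against 329, 353 and 612 in B7 (log2 change -4.11, adjusted p = 2.1e-04). Sall3, a zinc finger factor, had 141, 224 and 438 in M7, against 976, 1395 and 1697 in B7 (log2 change -2.46, adjusted p = 1.4e-07). Skor1, a corepressor gene, had 3.35, 3.06 and 7.41 in M7, against 26.6, 37.4 and 42.2 in B7 (log2 change -2.76, adjusted p = 2.8e-05). Each of these 3 was lower in every M7 library. The class selectors Lbx1 and Pax2 were high in R7 rather than in either BMP4 group. Lbx1 had 11.4, 14.6 and 24.8 in M7, against 34.6, 51.9 and 49.4 in B7, and 275, 325 and 138 in R7, and the M7 to B7 difference did not pass (log2 change -1.42, adjusted p = 0.063). Pax2 had 6.30, 60.9 and 68.8 in M7, against 47.1, 69.1 and 67.5 in B7, and 833, 784 and 599 in R7, and did not pass (log2 change -0.96, adjusted p = 0.16).

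Ventral and motor neuron genes gave 1 higher and 4 lower of 11 in the table (of 15 listed), with a median of -0.99. The share that passed, 45.5%, was near the 41.6% of all genes. En1, the homeobox factor of V1 interneurons, which dermomyotome and limb ectoderm also express, was the higher one at 536, 742 and 1009 in M7, against 131, 155 and 252 in B7 (log2 change 2.09, adjusted p = 4.8e-04). Isl2, a LIM homeobox factor of motor and sensory neurons, had 14.7, 34.8 and 82.8 in M7, against 206, 264 and 304 in B7 (log2 change -2.82, adjusted p = 2.1e-04). Nkx6-1, a ventral progenitor factor, had 2.82, 12.6 and 12.9 in M7, against 17.3, 16.3 and 16.9 in B7, and did not pass (log2 change -0.99, adjusted p = 0.12).

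Genes shared by all neurons had the largest share of lower members among the 35 lists examined. Of 30 on the list, 29 were in the table, 0 passed higher and 27 lower, with a median log2 change of -3.20. Beside that count, 19.9% of all genes tested passed lower. The summed level of the 29 genes was 7941, 10404 and 19461 in M7, against 73663, 74524 and 101557 in B7, and was 39599, 45396 and 14063 in R7. All M7 libraries were below all B7 libraries, and R7 lay between them except for its replicate 3, which was within the M7 range.

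Stmn2, a growth cone phosphoprotein, had 441, 321 and 778 in M7, against 5876, 5932 and 6022 in B7, with B7 nearly even (log2 change -3.63 ± 0.47 (SE), adjusted p = 3.2e-07). L1cam, an axonal adhesion molecule, had 49.8, 52.4 and 145 in M7, against 1044, 1035 and 1180.2 in B7 (log2 change -3.89, adjusted p = 6.0e-07). Ina, a neurofilament subunit, had 228, 245 and 586 in M7, against 2730.4, 2915 and 3364 in B7 (log2 change -3.22, adjusted p = 2.5e-08). In all 3 the highest M7 library was several times below the lowest B7 library. Of the 2 genes that did not pass, Ncam1, an adhesion molecule that mesoderm also carries, changed by 0.27 (adjusted p = 0.65) and Syt1, a synaptic vesicle calcium sensor, by -0.96 (adjusted p = 0.33).

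Synaptic and transmitter genes were measured for 26 of 30, with 0 higher, 13 lower and a median of -0.97. Syn1, which tethers synaptic vesicles, had 93.3, 82.4 and 172 in M7, against 503, 598 and 565 in B7 (log2 change -2.32, adjusted p = 2.3e-09), and Syp, a vesicle membrane protein, had 34.4, 99.9 and 245 in M7, against 509, 733 and 826 in B7 (log2 change -2.82, adjusted p = 9.2e-06). Both were lower in all M7 libraries. Slc17a6, the vesicular glutamate transporter of dorsal excitatory neurons, had 3.04, 1.61 and 9.18 in M7, against 21.4, 19.0 and 42.4 in B7, and did not pass (log2 change -2.50, adjusted p = 0.067).

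Axon guidance genes did not move one way. All 28 were in the table, 10 passed higher and 10 lower, and the median was 0.15. Among the lower ones, Cntn2, an adhesion molecule of commissural axons, had 163, 306 and 965 in M7, against 5495, 5807 and 9586 in B7 (log2 change -4.21, adjusted p = 1.9e-04), and Nrcam, its partner on axons, had 65.2, 109 and 243 in M7, against 592, 739.9 and 1159.9 in B7 (log2 change -2.72, adjusted p = 1.6e-04). Ntn1, the floor plate attractant of commissural axons, which dorsal progenitors also express, had 652, 352 and 374 in M7, against 2012, 1707 and 1361 in B7, and 4014, 3071 and 6027 in R7 (log2 change -1.92, adjusted p = 1.5e-05). Among the higher ones, Unc5b, a netrin receptor also found on vessels, had 8946, 8686 and 7797 in M7, against 1443, 1028 and 1203 in B7 (log2 change 2.80, adjusted p = 1.1e-06), and Epha4, an ephrin receptor of neural tube and mesoderm, had 2940.3, 2401 and 3091 in M7, against 1438, 1236 and 1347 in B7 (log2 change 1.06, adjusted p = 4.3e-05). All 5 separated the groups without overlap.

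In the Notch pathway, differentiating neurons hold back their neighbours. Of 19 genes in the table (20 listed), 4 passed higher and 12 lower, with a median of -1.74. The passing genes described here are all lower ones, and the 4 higher ones are not shown. The receptor Notch1 had 679.7, 966 and 1463 in M7, against 5376, 5663 and 6655 in B7, and 6869, 7288 and 5248 in R7, so that B7 was near R7 and M7 was 5.95-fold below B7 (log2 change -2.57 ± 0.29 (SE), adjusted p = 2.5e-08). The ligand Dll1 had 97.3, 252 and 502 in M7, against 1314, 1875 and 2195 in B7 (log2 change -2.92, adjusted p = 1.5e-05). The ligand Jag2 changed less, with 580.4, 521 and 506 in M7, against 1076, 1029 and 971 in B7, also without overlap (log2 change -0.94, adjusted p = 2.8e-06). Mfng, a glycosyltransferase that modifies Notch, had 44.5, 95.3 and 186 in M7, against 597, 822 and 829 in B7 (log2 change -2.99, adjusted p = 2.3e-07), and Hes6, a neurogenic relative of the Hes repressors, had 362, 607 and 882 in M7, against 1439.7, 1986 and 2543 in B7 (log2 change -1.74, adjusted p = 3.1e-05). Hes1, a Notch target that many tissues express, had 1024, 1319.7 and 1274 in M7, against 890.2, 979 and 1057 in B7, with a small overlap, and did not pass (log2 change 0.30, adjusted p = 0.1), nor did the ligands Jag1 (log2 change 0.39, adjusted p = 0.12) and Dll4 (log2 change -0.28, adjusted p = 0.76).

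Neural crest genes were divided. All 20 were in the table, 8 passed higher and 8 lower, with a median of 0.06. Crest and glial lineage genes stood on both sides. Sox10 and Erbb3 were lower. Sox10 had 50.4, 207 and 501 in M7, against 1072, 1354 and 1317 in B7 (log2 change -2.83, adjusted p = 0.0051; adjusted p 2e-05 to 0.064 over the alternatives, the highest without M7 replicate 1). Erbb3, a neuregulin receptor, had 340.4, 245 and 375 in M7, against 1139, 1232 and 867 in B7 (log2 change -1.76, adjusted p = 2.1e-07). Sox8, which is related to Sox10 and also acts in crest and glia, was higher, with 132, 200.1 and 126 in M7, against 63.7, 63.8 and 52.9 in B7 (log2 change 1.30, adjusted p = 1.2e-06), as was Ret, the receptor of enteric crest (log2 change 1.65, adjusted p = 0.0049, named after its values were seen). Dlx5, a homeobox gene of branchial arches and limb ectoderm, had 169.8, 238 and 176 in M7, against 9.85, 8.71 and 15.9 in B7, and 19.1, 23.3 and 31.4 in R7 (log2 change 4.00, adjusted p = 4.7e-07). Dlx6, its neighbour on chromosome 6, had 24.8, 27.9 and 23.2 in M7, against 1.12, 3.90 and 2.38 in B7 (log2 change 3.00, adjusted p = 5.1e-06), and Ets1, an ETS factor of crest and vessels, had 3179, 3403 and 3348 in M7, against 916, 888 and 994 in B7 (log2 change 1.83, adjusted p = 9.4e-06). Sox9 did not pass (log2 change 0.14, adjusted p = 0.87). Of 14 glial genes in the table (16 listed), 3 passed higher and 2 lower, with a median of 0.02, and the count of 5 was 2 to 4 when any 1 of the 6 libraries was left out. These 5 made up 35.7% of the list, beside 41.6% of all genes, so the count does not set it apart.

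Genes of lateral mesoderm and the early heart were mostly higher in M7. All 20 were in the table, 13 passed higher and 0 lower, with a median of 2.21. Beside that count, 21.7% of all genes passed higher. The summed level of the 20 genes was 19787, 26929 and 28666 in M7, against 7647, 6004 and 7861 in B7, and 3949, 4911 and 2162 in R7. All M7 libraries were above all B7 libraries and all B7 libraries above all R7 libraries. Relative to R7, without a test, the list's median log2 difference was 2.75 for M7 and 0.71 for B7. R7 replicate 3, which had the lowest sum of its group, is part of this baseline.

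Gata4, a zinc finger factor of heart and foregut, had 3687, 4769 and 3720.0 in M7, against 652, 572 and 894 in B7, and 387, 473 and 460.2 in R7 (log2 change 2.54 ± 0.58 (SE), adjusted p = 8.3e-04). Gata6, its relative, had 3357, 4132 and 3987 in M7, against 781, 496 and 881 in B7 (log2 change 2.44, adjusted p = 0.0017). Tbx5, a T-box factor of the heart and forelimb field, had 316, 804 and 1040.3 in M7, against 54.5, 50.3 and 77.2 in B7, with M7 replicate 1 lowest of its group (log2 change 3.41, adjusted p = 2.0e-04). In all 3 genes the lowest M7 library was several times the highest B7 library. Prrx2, a homeobox gene of lateral plate mesenchyme, had 652, 1539 and 1571 in M7, against 118, 165 and 143 in B7 (log2 change 3.04, adjusted p = 5.7e-06), and Tbx4, a hindlimb and lung T-box factor, had 90.0, 59.5 and 59.8 in M7, against 16.8, 27.1 and 10.3 in B7 (log2 change 1.96, adjusted p = 1.9e-05). Tbx2 missed the threshold with separate ranges (log2 change 2.12, adjusted p = 0.051), and Bmp4 itself had 1970.3, 1349 and 1684 in M7, against 1214, 532 and 887 in B7, also separate and not past the test (log2 change 0.99, adjusted p = 0.18).

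Genes of contractile heart muscle were measured for 18 of 20, with 8 higher, 1 lower and a median of 0.48. Tnnt2, cardiac troponin T, had 80.3, 169 and 107 in M7, against 21.4, 12.4 and 7.62 in B7, and 77.7, 104 and 29.8 in R7 (log2 change 3.06, adjusted p = 0.001). Tnni1, a troponin I of fetal heart and slow muscle, had 88.9, 287 and 240.1 in M7, against 9.20, 14.3 and 15.7 in B7, and 101, 215 and 60.4 in R7 (log2 change 3.74, adjusted p = 1.1e-06). For both, the R7 range overlapped that of M7, and B7 was below it. Nppa, the atrial natriuretic peptide, had 73.0, 62.5 and 87.5 in M7, against 12.9, 2.92 and 10.6 in B7, and 4.15, 7.11 and 0.623 in R7, so that every M7 library was above both other groups (log2 change 3.12, adjusted p = 1.1e-04 against B7; M7 and R7 were not tested). Myl3 (log2 change -1.19, adjusted p = 0.11) and Myh7 (log2 change -1.12, adjusted p = 0.057), ventricular and slow muscle genes, did not pass.

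Of 15 mesothelial and epicardial genes, 13 were in the table; 4 passed higher and 1 lower, with a median of 0.69, beside 21.7% higher and 19.9% lower among all genes, so the count alone does not set the list apart. Bnc1 changed by 2.46 (adjusted p = 0.0014) and Lrrn4 by 1.74 (adjusted p = 4.0e-05). Tcf21, of epicardium and visceral mesenchyme, had 84.9, 135 and 207 in M7, against 21.2, 13.6 and 35.5 in B7 (log2 change 2.56, adjusted p = 0.0074). Wt1, of mesothelium and kidney, had 3296, 3629 and 3814 in M7, against 1906, 1116 and 1681 in B7, and 421, 458 and 136 in R7 (log2 change 1.22, adjusted p = 0.028; adjusted p 5.8e-06 to 0.12 over the alternatives, the highest without B7 replicate 2). Upk3b, a mesothelial uroplakin, had 541, 703 and 375 in M7, against 434, 156 and 246 in B7, and 11.9, 12.5 and 1.23 in R7, so that both BMP4 groups were above R7 and their own ranges overlapped (log2 change 1.03, adjusted p = 0.38).

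Genes of mesenchyme and smooth muscle gave 9 higher and 0 lower of 21 in the table (25 listed), with a median of 1.24. Pdgfrb, the growth factor receptor of pericytes and mesenchyme, had 2424, 2701 and 2846 in M7, against 527, 509.7 and 519 in B7 (log2 change 2.35 ± 0.26 (SE), adjusted p = 2.8e-08). Snai1, a repressor that drives epithelial to mesenchymal transition, had 974, 1118 and 1246 in M7, against 309, 251 and 267 in B7 (log2 change 2.01, adjusted p = 4.9e-07), and Des, the muscle intermediate filament desmin, had 733, 789 and 719.5 in M7, against 218, 179 and 192 in B7 (log2 change 1.93, adjusted p = 1.8e-08). These 3 genes were even within each group and well apart between them. Acta2, smooth muscle actin, had 13384, 9092 and 11907 in M7, against 6438, 1696 and 4159.9 in B7, with separate ranges, and did not pass (log2 change 1.66, adjusted p = 0.2). When the 6 libraries were fitted alone, 14 of the 21 genes passed.

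Matrix genes gave 9 higher and 1 lower of 24 in the table (25 listed), with a median of 1.05. Vcan, a large proteoglycan of embryonic mesenchyme, had 9023, 8678 and 9695 in M7, against 2641, 2617 and 2766 in B7 (log2 change 1.77, adjusted p = 9.5e-05). Col6a2, a collagen VI chain, had 755, 800.2 and 647 in M7, against 115, 133 and 144 in B7 (log2 change 2.48, adjusted p = 7.8e-05), and Fn1, fibronectin, had 45583, 30147 and 31452 in M7, against 19856, 11502 and 15128 in B7 (log2 change 1.21, adjusted p = 7.0e-04). The lower gene was Lama1, the laminin chain of early neural and epithelial basement membranes, at 3532, 3147 and 4383 in M7, against 8431, 7084 and 13011 in B7 (log2 change -1.33, adjusted p = 7.9e-04). All 4 separated the groups. Col1a1, the main fibrillar collagen chain, had 7341, 5947 and 7058 in M7, against 2707, 1460.0 and 2638 in B7 and did not pass (log2 change 1.63, adjusted p = 0.064). Without B7 replicate 2 the count of 10 was 6.

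Paraxial mesoderm genes passed in both directions, with 7 higher and 3 lower of 16 in the table (18 listed) and a median of 0.91. The passing genes described here are all higher ones, and the 3 lower ones are not shown. Foxc1 and Foxc2, forkhead factors of somites and vessels, were both higher in every M7 library. Foxc1 had 752, 1218 and 1277 in M7, against 150.3, 149 and 144 in B7 (log2 change 2.83, adjusted p = 8.5e-06), and Foxc2 had 877, 1539.8 and 1429.7 in M7, against 142, 145 and 142 in B7 (log2 change 3.11, adjusted p = 2.0e-05). Nkx3-2, a homeobox factor of the sclerotome, changed by 2.06 (adjusted p = 2.9e-04), and Scx, of tendon progenitors, by 2.00 (adjusted p = 5.2e-04). Tbx6, of presomitic mesoderm, had 36.1, 40.4 and 37.8 in M7, against 21.3, 30.9 and 15.3 in B7 and did not pass (log2 change 0.79, adjusted p = 0.38).

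Skeletal muscle genes gave 4 higher and 5 lower of 14 in the table (20 listed), with a median of -0.93. Myh3, the embryonic myosin heavy chain, had 5.72, 9.10 and 13.7 in M7, against 124, 283 and 142 in B7, and 595, 801 and 357 in R7, an order of M7 below B7 below R7 (log2 change -4.11, adjusted p = 4.2e-05). Myog, the myogenic differentiation factor, had 0.419, 0.823 and 1.28 in M7, against 14.7, 20.6 and 12.8 in B7, and 79.0, 105 and 23.4 in R7, in the same order (log2 change -3.21, adjusted p = 2.8e-04). Tnni2, a fast troponin I, was among the higher ones and had 8.79, 21.5 and 14.8 in M7, against 2.00, 1.89 and 2.34 in B7 (log2 change 2.30, adjusted p = 9.5e-05), and Myod1 had 0.864, 2.48 and 0.931 in M7, against 1.19, 10.6 and 2.44 in B7, and did not pass (log2 change -0.93, adjusted p = 0.23). The count of 9 was 5 without M7 replicate 2 or M7 replicate 3.

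Of 19 endothelial and blood genes in the table (23 listed), 4 passed higher and 0 lower, with a median of 0.34. This share, 21.1%, was near the 21.7% of all genes that passed higher, so the count alone does not set the list apart. The 4 were Hba-x, described above, Hbb-y, Lyl1 and Egfl7. Hbb-y, the embryonic beta globin, had 228, 545 and 7.15 in M7, against 15.4, 5.24 and 3.52 in B7; M7 replicate 3 fell within the B7 range (log2 change 3.70, adjusted p = 8.5e-04; adjusted p 7.9e-08 to 0.096 over the alternatives, the highest with the 6 libraries fitted alone). Lyl1, a blood and vessel transcription factor, averaged 19.7 ± 0.635 in M7 and 5.66 ± 2.27 in B7 (SD, n = 3 each; log2 change 1.68, adjusted p = 0.0022). Pecam1, the endothelial adhesion molecule, had 396, 199.9 and 308 in M7, against 412, 454 and 334 in B7, with overlap, and did not pass (log2 change -0.45, adjusted p = 0.52). Without M7 replicate 3, 7 genes of the list passed.

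Genes of surface ectoderm and simple epithelia were mostly higher in M7. All 25 were in the table, 17 passed higher, 1 lower and 7 did not pass, with a median of 1.16. Beside that count, 21.7% of all genes passed higher. Krt8, a simple-epithelium keratin, had 1849, 2784 and 1993 in M7, against 638, 669 and 615 in B7, with B7 nearly even (log2 change 1.76 ± 0.20 (SE), adjusted p = 3.6e-08). Its partner Krt18 had 1754, 2844 and 2466 in M7, against 1106, 1181 and 1104 in B7 (log2 change 1.03, adjusted p = 0.0016). Dsp, the desmosome protein desmoplakin, had 4198, 6024 and 4634 in M7, against 1064, 909 and 885 in B7 (log2 change 2.36, adjusted p = 1.7e-07). All M7 libraries were above all B7 libraries in the 3 genes, and the R7 levels of Dsp, 680.0, 855 and 1091, overlapped those of B7. Keratins have processed pseudogenes, and how shared reads were counted is not given.

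Trp63, the factor of stratified epithelia, had 124, 140.5 and 188 in M7, against 16.4, 15.2 and 15.1 in B7, and 23.3, 21.8 and 8.02 in R7 (log2 change 3.18, adjusted p = 4.2e-06). Grhl2, a factor of epithelial junctions in surface ectoderm, had 541, 219 and 200.4 in M7, against 76.4, 64.9 and 24.3 in B7, with M7 replicate 1 highest (log2 change 2.51, adjusted p = 1.4e-04). Esrp1, an epithelial splicing regulator, had 564, 421 and 383 in M7, against 151, 152 and 97.8 in B7 (log2 change 1.77, adjusted p = 1.1e-04). Krt19 (log2 change 0.69, adjusted p = 0.089), Cldn6 (log2 change 0.51, adjusted p = 0.16) and Cldn7 (log2 change 0.48, adjusted p = 0.25) did not pass. Of 16 endoderm genes in the table (20 listed), 2 passed higher and 1 lower, with a median of 0.51, and this count of 3 was 5 without B7 replicate 1 or M7 replicate 3 and 1 without B7 replicate 3. These 3 were 18.8% of the list, below the 41.6% of all genes that passed.

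**Figure D3:**
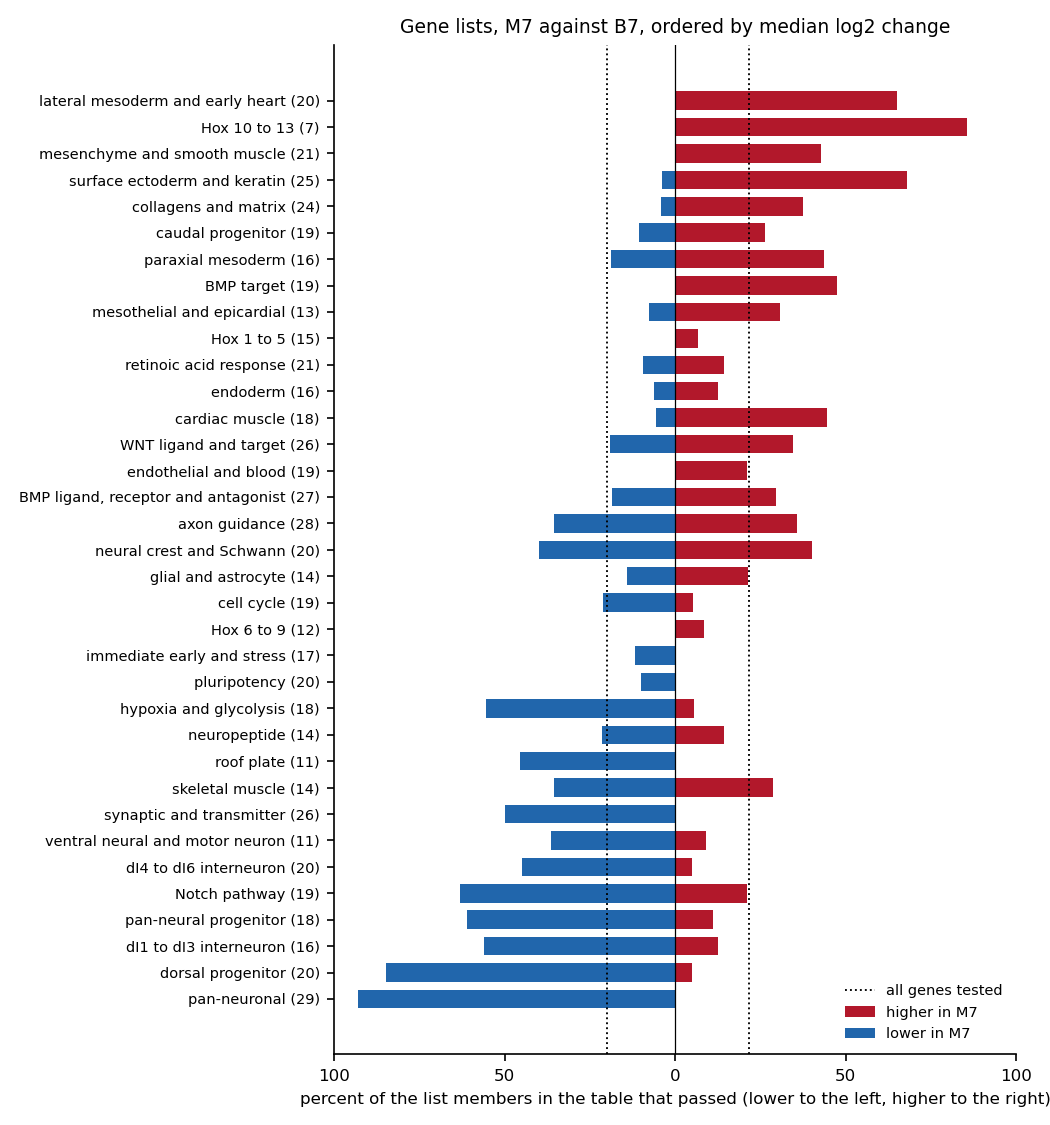
Share of each list's members in the table that passed higher (red, to the right) or lower (blue, to the left) in M7 against B7, with the number of members in brackets and the lists ordered by median log2 change. Dotted lines mark the shares over all 11220 genes (21.7% higher, 19.9% lower). The pan-neuronal list (27 of 29 lower) and the lateral mesoderm list (13 of 20 higher) lie at opposite ends.

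BMP pathway genes were examined by role. Of 27 ligand, receptor and antagonist genes in the table (29 listed), 8 passed higher and 5 lower, with a median of 0.31. Their share of 48.1% lay near the 41.6% of all genes. Among ligands, Bmp5 had 169, 382 and 426 in M7, against 36.4, 49.4 and 54.9 in B7 (log2 change 2.68, adjusted p = 3.0e-04), while the roof plate ligands Gdf7, given above, and Bmp6 were lower; Bmp6 had 115, 186 and 170.1 in M7, against 383, 412 and 754 in B7 (log2 change -1.67, adjusted p = 0.011; adjusted p 0.0002 to 0.066 over the alternatives, the highest without B7 replicate 3). Tgfb1, a ligand of the sister TGF-beta branch, had 825, 602 and 452 in M7, against 208, 209 and 149 in B7, and 50.2, 38.7 and 59.3 in R7 (log2 change 1.70, adjusted p = 1.3e-04). Bmp5 and Tgfb1 were above, and Bmp6 below, in every M7 library. Among type I receptors, Bmpr1b, which dorsal progenitors express, had 84.1, 157 and 242 in M7, against 480.2, 621 and 1044 in B7 (log2 change -2.19, adjusted p = 8.3e-05), and the more general Acvr1 had 800.0, 819 and 772 in M7, against 495, 374 and 500.4 in B7 (log2 change 0.82, adjusted p = 4.1e-04). The antagonist Chrd (log2 change -0.68, adjusted p = 0.092) and the modulator Bmper (log2 change 1.43, adjusted p = 0.098) did not pass. Without M7 replicate 2, 8 of these genes passed in place of 13.

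Of 19 BMP target genes, all in the table, 9 passed higher and 0 lower, with a median of 0.79. That is 47.4% of the list, beside 21.7% of all genes that passed higher. Bambi, a decoy receptor that BMP induces, had 2614, 3652 and 3177 in M7, against 395, 356 and 558 in B7, and 351, 401 and 184 in R7 (log2 change 2.86 ± 0.46 (SE), adjusted p = 1.0e-05). Atoh8, a helix-loop-helix target of BMP receptors, had 262, 809 and 731 in M7, against 103, 137 and 196 in B7, and 457, 569 and 377 in R7 (log2 change 1.93, adjusted p = 0.0021). Dlx3, a homeobox gene of surface ectoderm, had 249, 399 and 352 in M7, against 68.7, 87.8 and 76.7 in B7 (log2 change 2.07, adjusted p = 2.6e-04). In Bambi B7 was near R7 and M7 was raised, while in Atoh8 R7 lay between the M7 libraries.

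The Id genes, classical direct targets, were not among those that passed. Id1, an inhibitor of helix-loop-helix factors, had 1582, 2507 and 2729 in M7, against 1954, 2456 and 3239 in B7, and 2829.7, 3182 and 1836 in R7 (log2 change -0.17, adjusted p = 0.74). The 3 ranges overlapped. Id2 (log2 change 0.79, adjusted p = 0.32), Id3 (log2 change 0.16, adjusted p = 0.8, named after its values were seen) and Id4 (log2 change -0.58, adjusted p = 0.51) did not pass either. These values are of cultures 2 days after BMP4 had been given, and pathway activity was not measured.

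RA response genes gave 3 higher and 2 lower of 21 in the table (22 listed), with a median of 0.56. The share that passed was 23.8%, below the 41.6% of all genes. Rara, an RA receptor, had 2822, 3135 and 3715 in M7, against 4256, 4439.9 and 5531 in B7 (log2 change -0.56, adjusted p = 0.0047), and Meis2, a homeobox target of RA, had 4115, 10380.0 and 11531 in M7, against 1899, 2294 and 3464 in B7 (log2 change 1.68, adjusted p = 0.01; adjusted p 4.1e-07 to 0.055 over the alternatives, the highest without M7 replicate 3). Aldh1a2, the RA-synthesizing enzyme, had 369, 788 and 893 in M7, against 1501, 1865 and 1769.7 in B7 (log2 change -1.42, adjusted p = 0.014; adjusted p 0.00057 to 0.1, the highest without M7 replicate 1). The groups did not overlap in these 3 genes. Rarb, a direct RA target, did not pass (log2 change 1.35, adjusted p = 0.13). The count of 5 was 2 without M7 replicate 2 or M7 replicate 3.

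WNT genes gave 9 higher and 5 lower of 26 in the table (29 listed), with a median of 0.38. Passing genes were 53.8% of the list, beside 41.6% of all genes. Wnt2, a ligand of cardiac and lung mesoderm, had 198, 331 and 574 in M7, against 40.7, 41.6 and 69.9 in B7 (log2 change 2.75, adjusted p = 2.3e-04). Wnt5a, a ligand of tail and limb mesenchyme, had 1099, 2039 and 2169.6 in M7, against 498, 619 and 642 in B7 (log2 change 1.54, adjusted p = 1.4e-04), and Rnf43, a target that degrades Frizzled receptors, had 128, 154 and 164 in M7, against 43.1, 60.7 and 73.9 in B7 (log2 change 1.34, adjusted p = 1.8e-04). The roof plate ligand Wnt3a, given above, and the target Axin2 were lower; Axin2 had 2072, 2943 and 4091 in M7, against 4399.5, 4898 and 6601 in B7 (log2 change -0.84, adjusted p = 0.0061; adjusted p 0.00015 to 0.067 over the alternatives, the highest without M7 replicate 1). The count of 14 fell to 8 without B7 replicate 2 and to 9 without M7 replicate 2.

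Hox genes, which record position along the body axis, differed by paralog group. Of 15 genes of groups 1 to 5, 1 passed higher and 0 lower (0 without B7 replicate 1, B7 replicate 3, M7 replicate 2 or M7 replicate 3, and 6 without M7 replicate 1), and of 12 genes of groups 6 to 9, 1 passed higher and 0 lower. Hoxb4 had 432, 1353 and 982 in M7, against 372, 492 and 499.7 in B7, and Hoxc8 425, 1413 and 2804 in M7, against 680.1, 1126 and 2128 in B7; the ranges overlapped and neither passed (log2 change 0.88, adjusted p = 0.089 for Hoxb4 and 0.02 (adjusted p = 0.99) for Hoxc8). Hoxd9, the gene of groups 6 to 9 that passed, had 218, 416 and 568 in M7, against 29.4, 36.8 and 48.4 in B7, and 27.0, 46.0 and 17.3 in R7 (log2 change 3.28 ± 0.40 (SE), adjusted p = 1.2e-07). Of groups 10 to 13, 7 of 12 genes were in the table and 6 passed higher, with a median of 1.75. Genes enter the table only by passing a comparison of the authors, B7 against M7 among them, which favours a high share here. Without genes listed through B7 against M7 alone, an alternative chosen after seeing the data, the count was 4. Hoxa10 had 243, 124 and 189.6 in M7, against 44.7, 50.1 and 64.2 in B7 (log2 change 1.75, adjusted p = 0.014; adjusted p 0.0011 to 0.058 over the alternatives, the highest without M7 replicate 1). Hoxb13 had 34.4, 45.2 and 26.5 in M7, against 10.4, 8.13 and 7.89 in B7 (log2 change 1.87, adjusted p = 1.3e-06), Hoxd10 had 12.5, 6.62 and 18.0 in M7, against 1.39, 4.71 and 1.24 in B7 (log2 change 2.00, adjusted p = 0.0027), and Hoxd11 had 17.3, 12.9 and 11.6 in M7, against 5.21, 4.29 and 1.40 in B7 (log2 change 1.78, adjusted p = 0.0045). Every M7 library was above every B7 library in these 4 genes. Hoxc10 had 14.1, 5.11 and 8.79 in M7, against 9.22, 12.9 and 13.6 in B7 and did not pass (log2 change -0.40, adjusted p = 0.56). Neighbouring Hox genes overlap in antisense transcripts, and whether counting used the strand is not given.

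Caudal progenitor genes gave 5 higher and 2 lower of 19 in the table (20 listed), with a median of 0.97. The share that passed, 36.8%, was near the 41.6% of all genes. Evx1, of the tail bud and V0 neurons, had 87.1, 144 and 91.4 in M7, against 22.6, 22.5 and 10.2 in B7 (log2 change 2.53, adjusted p = 0.0015). T (brachyury), the mesoderm factor of neuromesodermal progenitors, had 26.1, 16.4 and 46.3 in M7, against 25.8, 36.3 and 9.02 in B7, with overlap, and did not pass (log2 change 0.38, adjusted p = 0.8). Of 20 pluripotency genes, all in the table, 0 passed higher and 2 lower, namely Sox2, which neural progenitors share, and Esrrb (log2 change -1.40, adjusted p = 0.0497; adjusted p 1.3e-05 to 0.26 over the alternatives, the highest without M7 replicate 2). The count of 2 was 4 without B7 replicate 3, 5 without M7 replicate 1, and 1 without any other 1 of the 6 libraries.

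Of 19 cell cycle genes in the table (25 listed), 1 passed higher and 4 lower, with a median of -0.03. Their share of 26.3% was below the 41.6% of all genes. Ccnd1, cyclin D1, had 2526, 3638 and 4248 in M7, against 6938, 7951 and 7717 in B7, and 12633, 13745 and 15665 in R7, in the order M7 below B7 below R7 (log2 change -1.15, adjusted p = 1.7e-06). Top2a, a topoisomerase of dividing cells, changed by -0.48 (adjusted p = 0.0029). Without M7 replicate 3 the count of 5 was 3. Of 18 hypoxia and glycolysis genes in the table (20 listed), 1 passed higher and 10 lower, with a median of -0.65. Ankrd37, a hypoxia target, had 39.8, 63.4 and 54.1 in M7, against 105, 136 and 129.7 in B7 (log2 change -1.24, adjusted p = 3.6e-04), Pdk1, which restrains mitochondrial pyruvate use, had 1202, 1380.3 and 1593 in M7, against 2785, 3564 and 3153 in B7 (log2 change -1.19, adjusted p = 0.0016), and Egln3, an oxygen-sensing hydroxylase, had 160.4, 289.9 and 332 in M7, against 384, 651 and 588 in B7 (log2 change -1.08, adjusted p = 7.3e-04). The 3 M7 libraries were below the 3 B7 libraries in each, and for Ankrd37 and Pdk1 R7 was near M7, at 70.6, 58.3 and 63.8 and 1624, 1174 and 1518. Oxygen and culture density were not recorded in the sources used here, and their part in these differences was not tested.

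Of 17 immediate early and stress genes in the table (18 listed), 0 passed higher and 2 lower, both of which neurons also use during differentiation. Btg2, an antiproliferative gene of neurogenic divisions, had 859, 851 and 956 in M7, against 2419.7, 2539 and 2932 in B7 (log2 change -1.56, adjusted p = 4.4e-05), and Gadd45a, a growth arrest gene, had 438, 376 and 416 in M7, against 1202, 1201 and 942 in B7 (log2 change -1.43, adjusted p = 3.1e-07). Of 14 neuropeptide genes in the table (20 listed), 2 passed higher and 3 lower, with a median of -0.71. Their share of 35.7% was near the 41.6% of all genes. Tac2, the neurokinin B precursor, was the most raised at 154, 170.0 and 150.4 in M7, against 15.0, 5.10 and 8.47 in B7, and 0.673, 1.45 and 0.337 in R7 (log2 change 4.03, adjusted p = 5.9e-08). Nppc, the C-type natriuretic peptide, had 2.73, 13.6 and 7.61 in M7, against 73.9, 67.3 and 95.6 in B7 (log2 change -3.35, adjusted p = 3.7e-05). Both separated the groups without overlap. The count of 5 was 3 without B7 replicate 1 or M7 replicate 2.

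The same pair of treatments was also sampled on day 5, when treatment ended, and on day 9, and the size of the difference was tested between days. From day 5 to day 7 the log2 difference between the combined and the sequential groups changed in 1599 genes (14.3%), upward in 849 (7.57%) and downward in 750 (6.68%). From day 7 to day 9 it changed in 434 genes (3.87%), upward in 283 (2.52%) and downward in 151 (1.35%). The earlier count was 839 without M7 replicate 2, 867 without B5 replicate 3 and 918 without M5 replicate 1. The later count was 180 without M9 replicate 1, 190 without B9 replicate 3, 207 without B7 replicate 2, 219 without M9 replicate 2, 248 without B9 replicate 2, 256 without M7 replicate 2, 282 without B7 replicate 1 and 284 without B7 replicate 3.

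For pan-neuronal genes the median log2 difference was -1.19 on day 5, -3.20 on day 7 and -2.02 on day 9. From day 5 to day 7 it moved down in 7 of 29 genes and up in 0, and from day 7 to day 9 up in 2. Dorsal progenitor genes were already apart on day 5, with medians of -3.27, -3.20 and -2.32 on days 5, 7 and 9, and 1 gene moved up and 1 down from day 5 to day 7. Lateral mesoderm genes had medians of 1.18, 2.21 and 1.74, and 3 of 20 moved up from day 5 to day 7. Surface ectoderm genes had medians of 1.07, 1.16 and 0.79, and 1 of 25, Krt8, moved, downward from day 7 to day 9 (adjusted p = 0.046, and up to 0.17 when 1 of the compared libraries was left out, the highest without M9 replicate 1). The Notch list had -0.92, -1.74 and -0.59, with 4 of 19 genes moving down and 1 up from day 5 to day 7. The hypoxia list had 0.26, -0.65 and -0.01, with 6 of 18 moving down from day 5 to day 7 and 3 up from day 7 to day 9.

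**Figure D4:**
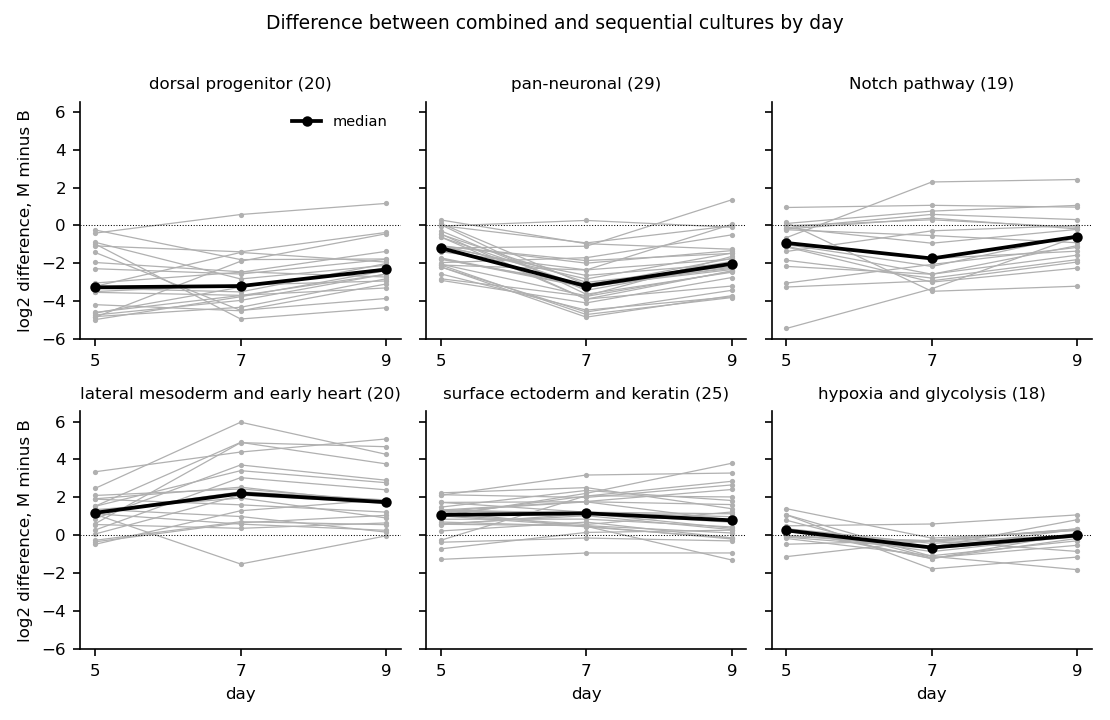
Log2 difference between combined and sequential cultures (M minus B) on days 5, 7 and 9 for 6 gene lists, with 1 grey line per gene, the median in black and the number of genes in brackets. The pan-neuronal median goes lowest on day 7, at -3.20, the dorsal progenitor median is at -3.27 already on day 5, and the lateral mesoderm median is highest on day 7, at 2.21.

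Among single genes, Foxf1 averaged 943 ± 262 in combined cultures and 319 ± 53.0 in sequential cultures on day 5, and 606 ± 209 and 42.8 ± 11.8 on day 9 (SD, n = 3 each). Its log2 difference was larger on day 7 than on day 5 by 3.37 ± 0.74 (SE), adjusted p = 0.003. On day 7 the means were 685 ± 348 in M7 and 21.0 ± 9.46 in B7, so that the sequential cultures were far lower on day 7 than on day 5. Gata5 averaged 2009.7 ± 721 and 1285 ± 303 on day 5 in combined and sequential cultures, and 1159.5 ± 507 and 35.6 ± 7.49 on day 7 (change of the log2 difference 4.28 ± 1.23 (SE), adjusted p = 0.019, and up to 0.054 without B5 replicate 3, M5 replicate 1 or M7 replicate 2). Hand1 averaged 5715 ± 772 and 1039 ± 221 on day 5, and its change did not pass (3.49 ± 1.28 (SE), adjusted p = 0.061).

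Cntn2 averaged 183 ± 28.1 in combined and 121 ± 149 in sequential cultures on day 5, and 309 ± 119 and 3042 ± 333 on day 9. The sequential cultures of day 5 were uneven, with an SD above their mean. Its log2 difference moved by -5.56 ± 1.19 (SE), adjusted p = 0.0026 from day 5 to day 7. This move was larger than the day 7 difference of -4.21, so on day 5 the combined cultures were higher on the log2 scale. Grm2 averaged 11.9 ± 7.12 and 26.1 ± 11.8 on day 5, and 12.4 ± 3.41 and 87.1 ± 17.1 on day 9, so that the high B7 level stood on day 7 (change from day 5 to day 7 -3.96 ± 1.17 (SE), adjusted p = 0.022, and up to 0.072 without B5 replicate 3, M5 replicate 1 or M7 replicate 2). Sox2 averaged 1128 ± 511 and 4873 ± 554 on day 5, and 1153 ± 373 and 8040.1 ± 1046 on day 9, and its difference did not move past the test between days (-0.90 ± 0.43 (SE), adjusted p = 0.15 and 0.26 ± 0.43 (SE), adjusted p = 0.8). Hba-x averaged 1.43 ± 0.375 and 1.82 ± 0.611 on day 9, and its difference moved by -5.43 ± 1.30 (SE), adjusted p = 0.015 from day 7 to day 9; the adjusted p was up to 0.062 without B7 replicate 2 or M7 replicate 2 and 0.051 with the replicate block on the compared libraries alone.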

How the data were processed

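Per the labels' protocols, mRNA libraries of whole cultures (NuGEN kit) were read on a NovaSeq S1, with 30000000 reads per sample as the stated aim. The submitters' processing notes list Picard, edgeR and mm10 and give no role or version for them; for the aligner and counter nothing was found (not given in the sources used here). Levels as deposited are a signal per gene and library that the authors normalized by a method not stated. None is 0, and only 1 is whole with no tolerance allowed, so they are not read counts and the depth behind each value is unknown. The columns headed fpkm and the rank column, both deposited by the authors, were treated as scores and left out. Log2 fold changes deposited by the authors run the other way (B7 over M7), and follow the M7 minus B7 changes here with r = -0.99 across genes. The authors' deposited p-values were adjusted over 16014 genes, and each of the 11220 listed genes has a rate under 0.1 in at least 1 of 12 comparisons, 4620 of them in B7 against M7. Of 22 symbols turned into dates, 21 were restored.

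Here, log2(level + 1) of all 45 libraries (15 groups of 3) was fitted with limma 3.58.1 in R 4.3.3 (trend, robust empirical Bayes, 1 coefficient per group), with contrasts for M7 minus B7 and for the change of that difference from day 5 to 7 and from day 7 to 9. A filter of level 1 in 3 libraries removed 0 genes. P-values were adjusted by Benjamini and Hochberg over 11220 genes in each of the 3 tests and called under 0.05. Fold changes are on the log2(level + 1) scale and understate changes of low genes. In simulated data of 11220 genes for M7 against B7, 75% of 2-fold and 96% of 4-fold changes were called, with 11 false calls. Changes of each size were planted in 100 genes, none of them low in B7. Noise was independent between libraries, with 1 spread per gene in all groups. In the real data 41.6% of genes passed and deviations of same-numbered libraries correlated at up to 0.61, so these rates need not hold there, least of all for low genes. P-values rest on 1 spread per gene, pooled over the 3 cultures of each of the 15 groups and moderated across genes. They do not measure the spread within M7 and B7 alone. The labels do not tie the cultures to differentiations by number. The deviations from group means of same-numbered M7 and B7 libraries correlated at 0.61, 0.01 and 0.54. In the main fit the numbers were not taken as pairs, and a replicate block was fitted as an alternative.

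The members and the 35 gene lists (659 genes, 594 in the table) were chosen with earlier results of these data known. Named genes are the 10 higher and 10 lower genes with the largest changes among called genes without overlap and with a mean of at least 20 in the higher group, up to 5 called and 3 not passed members per list by smallest p, fixed markers, and up to 5 genes per direction for each change between days. Genes found in GENCODE M21 on mm10 numbered 10867; every gene printed with a position is protein-coding there. Alternatives were other pseudocounts (0.1, 5), no filter or a mean level of at least 50, quantile normalization, array weights, a replicate block, fewer libraries in the fit, each library left out, other thresholds (0.01, 0.1), adjustment over 16014 genes and the authors' test.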

Additional observations from a re-analysis of the deposited data

Results flagged for a closer look

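The difference between combined and sequential cultures changed between days in 30 genes followed singly, by a limma test of that change. Only leading genes, fixed markers and genes named for their change between days were counted. Genes named through the lists alone were left out, although list members also moved, as counted above. Genes named for their change between days were chosen by this same test, so their passing is a condition of the choice. The values below are changes of the log2 difference (combined minus sequential), with adjusted p from 1.6e-06 for Crhbp to 0.046 for Krt8.

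From day 5 to day 7 it rose by 3.37 for Foxf1, 4.28 for Gata5, 2.10 for Prom2 and 2.69 for Tmem54, by 2.41 for Lhx2, and by 4.46 for Csn3, 4.32 for Sp8, 4.15 for Meox1 and 4.03 for Iigp1. Meox1, a somite homeobox gene, averaged 1077 ± 514 in combined and 2909 ± 1907 in sequential cultures on day 5, and 521 ± 167 in M7 and 72.1 ± 20.5 in B7 (SD, n = 3 each), so that the order of the groups turned round. Iigp1, an interferon-inducible GTPase, averaged 47.8 ± 4.23 and 38.4 ± 5.74 on day 5, and 92.8 ± 7.26 and 3.92 ± 2.03 on day 7.

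Over the same interval it changed by -3.96 for Grm2, -3.96 for Gsx1, -3.11 for Isl2, -5.56 for Cntn2, -3.14 for Pecam1, -6.43 for Crhbp, -4.76 for Prelp, -4.51 for Sncg and -4.38 for Scn3a. It also changed by -2.97 for Scn7a, -3.98 for Pou4f3, -1.96 for Scn9a and -3.19 for Kcnh1. Crhbp, which binds corticotropin-releasing hormone, averaged 39.1 ± 3.04 in combined and 2.19 ± 0.594 in sequential cultures on day 5, and 3.54 ± 2.83 in M7 and 26.3 ± 9.17 in B7. Pecam1 averaged 503 ± 197 and 78.9 ± 36.4 on day 5, and 301 ± 98.1 and 400.1 ± 61.3 on day 7.

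From day 7 to day 9 it changed by -5.43 for Hba-x, -4.23 for Hbb-y, -4.06 for Myl4, -2.24 for Nr1h5, -3.59 for Rspo4, -0.97 for Krt8, -4.54 for Mab21l2 and -4.38 for Fos. Upward changes were 3.18 for Isl2, 2.56 for Prelp, 3.80 for Scn7a, 2.82 for Pou4f3, 2.78 for Scn9a and 2.77 for Kcnh1. Isl2, Prelp, Scn7a, Pou4f3, Scn9a and Kcnh1 were thus lowest relative to sequential cultures on day 7 among the 3 days. Kcnh1, a voltage-gated potassium channel, averaged 52.3 ± 17.3 and 31.1 ± 6.82 on day 5, 54.5 ± 27.8 and 283 ± 61.8 on day 7, and 45.6 ± 21.1 and 35.4 ± 6.26 on day 9, in combined and sequential cultures each time. Scn9a, a sodium channel of sensory neurons, averaged 18.4 ± 4.25 and 35.0 ± 12.9, 54.0 ± 37.2 and 336 ± 23.8, and 69.2 ± 21.2 and 69.1 ± 9.43 on the same days. Fos, an immediate early gene, averaged 56.1 ± 18.0 in combined and 1656 ± 188 in sequential cultures on day 9, against 53.9 ± 14.2 and 76.7 ± 14.0 on day 7.

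All of these changes were refitted without each compared library. Calls from day 5 to day 7 that were lost without 1 library were those of Csn3 (adjusted p up to 0.070) and Scn3a (up to 0.058), without B5 replicate 3 or M7 replicate 2; of Gata5 (up to 0.054) and Grm2 (up to 0.072), without either of these or M5 replicate 1; of Scn9a (up to 0.061), without M7 replicate 2; and of Lhx2 (up to 0.11), without B5 replicate 1 or 3, B7 replicate 1 or 2, M5 replicate 1 or M7 replicate 2. From day 7 to day 9 they were those of Hba-x (up to 0.062), without B7 replicate 2 or M7 replicate 2, Mab21l2 (up to 0.061), without B7 replicate 1 or 2, M7 replicate 3 or M9 replicate 1, and Isl2 (up to 0.073), without B7 replicate 2 or 3, B9 replicate 3, M7 replicate 1 or M9 replicate 1. Prelp (up to 0.097) was lost without B7 replicate 1 or 2, B9 replicate 3, M7 replicate 1 or 2, or M9 replicate 1 or 2. Krt8 (up to 0.17) was lost without any of the compared libraries except B9 replicate 2, M7 replicate 1, M9 replicate 2 or M9 replicate 3. Hbb-y (up to 0.15) was lost without any except B7 replicate 1, B9 replicate 1 or M7 replicate 3.

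With the compared libraries fitted alone, Scn9a from day 5 to day 7 (adjusted p = 0.056) and Nr1h5, Krt8 and Hbb-y from day 7 to day 9 (0.060, 0.078 and 0.17) did not pass. With the replicate block in that fit, Hba-x, Nr1h5, Krt8 and Hbb-y did not pass from day 7 to day 9 (0.051, 0.053, 0.094 and 0.16), and with the block over all libraries Krt8 did not (0.053).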

How the results depend on the processing

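The count of 4673 genes for M7 against B7 (2437 higher, 2236 lower) was 4640 and 4702 with pseudocounts of 0.1 and 5, 4605 after quantile normalization (2350 higher, 2255 lower), 3888 over genes with a mean level of at least 50, 4267 with adjustment over 16014 genes, 3964 from the 6 libraries alone, 3782 from the 9 day 7 libraries alone and 3780 by the authors' deposited test. It was 4218 without the genes listed through B7 against M7 alone, an alternative chosen after seeing the data. Array weights gave 7296 genes (3843 higher, 3453 lower), an adjusted p under 0.01 gave 3058 (1563 higher), and under 0.1 gave 5486. Leaving out 1 library gave 3584 to 4198 genes, 1788 to 2277 higher and 1796 to 2053 lower. In M7 against B7, every gene called both in a repeat and in the original fit had the same direction. Among named genes that did not pass, some changed sign between settings (Pax2, T, Msx1, Dll4, Hoxc8, Id1 and Sox9 among those given above), and none of these passed with the other sign. Without day 0 replicate 3, added after seeing the data, 4854 genes passed (2546 higher, 2308 lower), and 1865 and 532 for the changes between days. For the change of the difference from day 5 to day 7 (1599 genes), array weights gave 4948, the thresholds 571 and 2578, and leaving out 1 library 839 to 1881. For the change from day 7 to day 9 (434 genes), these gave 3141, 119 and 786, and 180 to 473. The cause of these moves was not tested, apart from the thresholds themselves. Among named genes that did not pass, 15 passed without M7 replicate 1 (Irx3, Tbx2, Rarb, Hes1 and Hoxb4 of those given above), 1 without M7 replicate 2 (Myl3) and 14 without M7 replicate 3 (Pax3, Lbx1 and Pax2). From the 6 libraries alone 32 passed, and 78 with array weights. Calls of named genes were also lost, counted here with those for changes between days. Lost calls numbered 16, 23 and 11 without M7 replicates 1, 2 and 3. Without B7 replicates 1, 2 and 3 they numbered 13, 16 and 13. From the compared libraries alone 13 were lost, and 1 with array weights. The depth of the libraries is unknown, so no limit of detection can be given.

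With the replicate number as a block, the count for M7 against B7 was 4596 over all libraries and 6105 from the 6 libraries alone; the changes between days numbered 1508 and 379 over all libraries, and 2229 and 516 from the compared libraries alone. Of the 3 same-numbered pairs of M7 and B7 libraries, 2 correlated in their deviations (0.61 and 0.54) and 1 did not (0.01). On day 5 the values were 0.02, 0.13 and 0.49, and on day 9 they were -0.35, -0.15 and 0.09. M7 and B7 libraries of different numbers had values of -0.60 to 0.24. Whether equal numbers stand for a shared source is not given in the labels, and these values do not settle it. With the block on the 6 libraries alone, 83 named genes passed that had not, among them Isl1, Slc17a6, Acta2, Col1a1, Vim, Syt1, Bmp4, Tbx2, Lbx1, Myh7, Chrd and Bmper, which also passed from the 6 libraries without the block, and Cldn6, Cldn7, Hes1, Hoxb4, Id2, Id4, Irx3, Jag1, Krt19, Lhx9, Msi1, Msx2, Pax3 and Rarb, which did not.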
